A study of Mus musculus with 8 samples.

Results

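The 8 genes described here encode 5 components of the phagocyte NADPH oxidase (Cybb, Cyba, Ncf1, Ncf4 and Rac2) and 3 proteins tied to neutrophil extracellular traps (Padi4, Padi2 and Gsdmd). They were chosen by gene symbol, matched through the gene identifiers of the count tables, and all 8 were found among 49315 genes. Their transcripts were counted by RNA sequencing in peritoneal neutrophils that casein, a milk protein used to provoke a sterile exudate, had drawn into the peritoneal cavity of C57BL/6 mice aged 2 months. Density had been used to part them into a light fraction and a heavy fraction. The mice were H2R deficient or wild type, H2R being the histamine H2 receptor, a Gs-coupled receptor that raises cyclic AMP. The 8 libraries form 4 groups of 2, which are H2R-deficient low density, wild-type low density, H2R-deficient high density and wild-type high density. H2R-deficient libraries carry the numbers 1 and 2, and wild-type libraries the numbers 2 and 4. The labels name neither the altered part of the receptor gene nor the animals behind each library. If 2 libraries of a group share an animal, the p-values below reflect technical spread alone.

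The oxidase moves electrons from NADPH across a membrane to oxygen and so makes superoxide, which is turned into the oxidants that neutrophils use against microbes. Its membrane core is a pair of proteins, gp91phox from Cybb and p22phox from Cyba, and it is switched on when cytosolic components, among them p47phox (Ncf1), p40phox (Ncf4) and the GTPase Rac2, move from the cytosol to that core. Extracellular traps are strands of chromatin with granule proteins on them that neutrophils can release. Peptidylarginine deiminase 4 (Padi4) converts arginines of histones to citrulline during trap formation, Padi2 encodes a related deiminase, and gasdermin D (Gsdmd) forms membrane pores after cleavage by inflammatory caspases or granule proteases. Transcripts of the oxidase core are not specific to neutrophils, since macrophages, dendritic cells and B cells also express them.

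Total counts ran from 19862716 to 24199215 per library. Levels are given in CPM, read counts scaled to a common total, over library sizes scaled by the trimmed mean of M-values (TMM), and a gene is called higher or lower in a comparison where edgeR's quasi-likelihood test gave a Benjamini-Hochberg adjusted p under 0.05 over 14909 genes tested. The 2 densities differed in marker transcripts of neutrophils and of other cells. Summed over 10 neutrophil markers, levels over all gene counts were 28239 to 36820 CPM in H2R-deficient low-density, 39991 to 50755 in wild-type low-density, 55520 to 56364 in H2R-deficient high-density and 52432 to 54551 in wild-type high-density libraries. The 6 B cell markers summed to 865 to 973 CPM in H2R-deficient and 155 to 376 CPM in wild-type low-density libraries, against 26.2 to 37.8 CPM in H2R-deficient and 31.2 to 37.3 CPM in wild-type high-density libraries. The 5 dendritic cell markers summed to 707 to 943 and 230 to 560 CPM in the low-density libraries of the same genotypes, against 5.72 to 8.66 and 3.66 to 20.9 CPM in the high-density ones. Macrophage markers, 8 genes, summed to 353 to 469 and 441 to 535 CPM at low density, against 243 to 390 and 470 to 533 CPM at high density. The 5 proliferation genes summed to 228 to 355 and 144 to 205 CPM at low density, against 55.9 to 60.7 and 53.0 to 78.7 CPM at high density, and 5 and 4 of them were called higher. The 4 erythroid genes summed to 0.0826 to 0.427 and 0.453 to 1.44 CPM at low density, against 18.9 to 42.3 and 41.2 to 156 CPM at high density, and all 3 that were tested were called lower in both genotypes. Of the macrophage markers, 5 were called higher and 1 lower in H2R-deficient cells, where their median log2 fold change between densities was 1.32, beside 0.23 in wild-type cells. The part of these markers in the values of the 8 genes was not tested. Mitochondrial genes took 0.59% of counts in both H2R-deficient low-density libraries and 0.159% to 0.387% in the other 6. In these bulk samples, fewer neutrophils and less RNA per neutrophil cannot be told apart. The targeted gene, Hrh2, held 215 to 435 counts in H2R-deficient and 556 to 830 in wild-type low-density libraries, and 275 to 599 in H2R-deficient and 700 to 2003 in wild-type high-density libraries. Its genotype difference was a log2 fold change of -1.48 at low and -1.60 at high density, and neither passed (edgeR adjusted p = 0.196 and 0.192).

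Within a library, where levels can be set against each other per transcript length in TPM, counts divided by exon length and scaled to a common total, the genes kept nearly one order. Cyba and Ncf1 stood at the top, at 776 to 1338 TPM and 800 to 1419 TPM over the 8 libraries, and changed places between libraries. Rac2 followed at 685 to 844 TPM, a range that overlapped both of theirs. Within a library it was below Ncf1 in all 8 libraries. It was also below Cyba, except in wild-type high-density library 2, where Rac2 had 783 TPM and Cyba 776 TPM. Ncf4 lay below at 373 to 525 TPM and Cybb at 172 to 308 TPM, with no overlap with each other or with Rac2. Gsdmd, at 94.9 to 139 TPM, and Padi4, at 61.7 to 139 TPM, overlapped, and Padi4 was above Gsdmd in 1 library, wild-type high-density library 2. Padi2 was far below the rest, at 3.17 to 5.38 TPM in low-density and 0.426 to 1.02 TPM in high-density libraries.

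**Figure D1:**
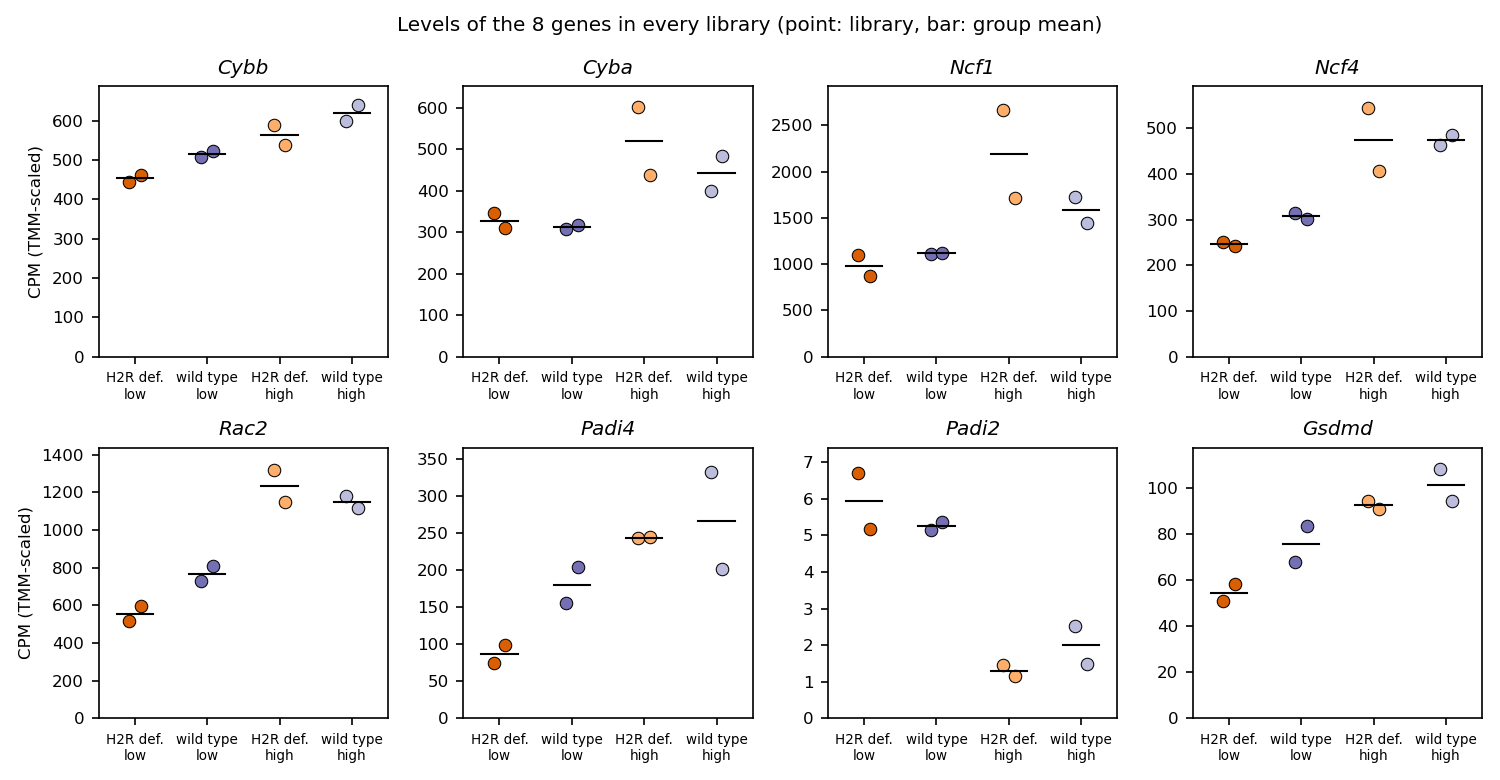
Levels of the 8 genes in CPM over TMM-scaled library sizes (vertical axes, linear from 0), with a point for each library and a bar for each group mean, for H2R-deficient low, wild-type low, H2R-deficient high and wild-type high density. Padi2 runs against the other genes: its low-density libraries lie at 5.15 to 6.71 CPM and its high-density libraries at 1.15 to 2.53 CPM.

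Between the densities of H2R-deficient cells, 6 of the 8 genes were lower in low-density cells under TMM scaling (Cyba, Ncf1, Ncf4, Rac2, Padi4 and Gsdmd), Padi2 was higher, and Cybb did not pass. Over all genes, 54% were called in this comparison, 30% higher and 23.9% lower. With libraries scaled to total counts only, 3 of the 8 were called (Cybb and Padi2 higher, Padi4 lower), and with libraries scaled to the 10 neutrophil markers 5 were called higher (Cybb, Cyba, Ncf4, Gsdmd and Padi2) and 0 lower. These scalings move the median of all genes to 0.9998 and 1.79, against 0.098 under TMM, and the split of all calls to 7690 higher and 387 lower on total counts and 11271 higher and 36 lower on the neutrophil markers, against 4478 and 3566. The median log2 fold change of the 8 genes was -0.85 under TMM, beside 0.098 for all genes tested and -1.66 for the neutrophil markers, 10 of 10 of which were lower. All 6 B cell and all 5 dendritic cell markers were higher in the same comparison, and their part in the values of the 8 genes was not tested.

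Of the membrane core, Cybb (ENSMUSG00000015340, chromosome X, 9435252 to 9487771, minus strand, GRCm38) had 445 and 462 CPM in H2R-deficient low-density libraries 1 and 2, against 588 and 538 CPM in high-density libraries 1 and 2. Both low-density libraries lay below both high-density ones, but the log2 fold change of -0.31 ± 0.16 (SE) did not pass (edgeR adjusted p = 0.131). Cyba (ENSMUSG00000006519, chromosome 8, 122424776 to 122432930, minus strand), whose product stabilises gp91phox, had 346 and 310 CPM in low-density libraries, against 601 and 437 CPM in high-density libraries. Its log2 fold change was -0.66 ± 0.20 (edgeR adjusted p = 0.0216), and 27.8% of all tested genes had a lower one. That call rests on single libraries: the value was -0.41 without high-density library 1, -0.74 without low-density library 1 and -0.58 without low-density library 2, and none of these passed (edgeR adjusted p = 0.175, 0.0603 and 0.110).

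The cytosolic components lay farther from 0 than the core by fitted value. Ncf1 (ENSMUSG00000015950, chromosome 5, 134220053 to 134229625, minus strand) encodes the organizer p47phox, whose phosphorylation starts assembly. It had 1095 and 873 CPM in H2R-deficient low-density libraries, against 2668 and 1717 CPM in high-density libraries, and every low-density library was below every high-density one. Its log2 fold change was -1.16 ± 0.24 (edgeR adjusted p = 0.00380). Ncf4 (ENSMUSG00000071715, chromosome 15, 78244801 to 78262580, plus strand), whose p40phox binds a phagosomal lipid, had 251 and 243 CPM at low density, against 543 and 405 CPM at high density, a log2 fold change of -0.94 ± 0.19 (edgeR adjusted p = 0.00288). Rac2 (ENSMUSG00000033220, chromosome 15, 78559169 to 78572783, minus strand), the Rac GTPase restricted to blood cells, had 517 and 594 CPM at low density, against 1316 and 1151 CPM at high density. The log2 fold change of Rac2 was -1.15 ± 0.18 (edgeR adjusted p = 0.0010). The groups did not overlap for any of the 3, and each was called without each of the 8 libraries in turn, with values of -1.44 to -0.80 for Ncf1, -1.14 to -0.71 for Ncf4 and -1.25 to -1.04 for Rac2. Ncf1 shares 408 of its 3663 exon bases with Gtf2ird2 on the opposite strand, which held 1748 to 3489 counts against 24496 to 45689 for Ncf1. The sources used here do not give the strand setting of the counting.

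Among the trap genes, the 2 deiminases were called in opposite directions under TMM and on total counts, while with scaling to the neutrophil markers Padi4 stood at 0.17 and was not called. Padi4 (ENSMUSG00000025330, chromosome 4, 140745865 to 140774236, minus strand) had 74.3 and 98.7 CPM in H2R-deficient low-density libraries, against 244 and 245 CPM in high-density libraries. Its log2 fold change of -1.499 ± 0.27 was the largest fall of the 8 genes under TMM (edgeR adjusted p = 0.00176), and 4.78% of all tested genes had a lower one. Padi2 (ENSMUSG00000028927, chromosome 4, 140906344 to 140952586, plus strand), which in mice is expressed in many tissues and citrullinates several proteins, had 6.71 and 5.16 CPM at low density, from 242 and 146 counts, against 1.46 and 1.15 CPM at high density, from 25 and 18 counts. The log2 fold change of Padi2 was 2.18 ± 0.34 (edgeR adjusted p = 0.000966), a 4.53-fold higher level, and it was called under all 16 alternatives, with values of 1.98 to 3.91. Gsdmd (ENSMUSG00000022575, chromosome 15, 75862339 to 75867404, plus strand) had 50.8 and 58.1 CPM at low density, against 94.2 and 90.6 CPM at high density, a log2 fold change of -0.76 ± 0.18 (edgeR adjusted p = 0.00638). Without low-density library 1, Gsdmd had -0.66 and did not pass (edgeR adjusted p = 0.0635).

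**Figure D2:**
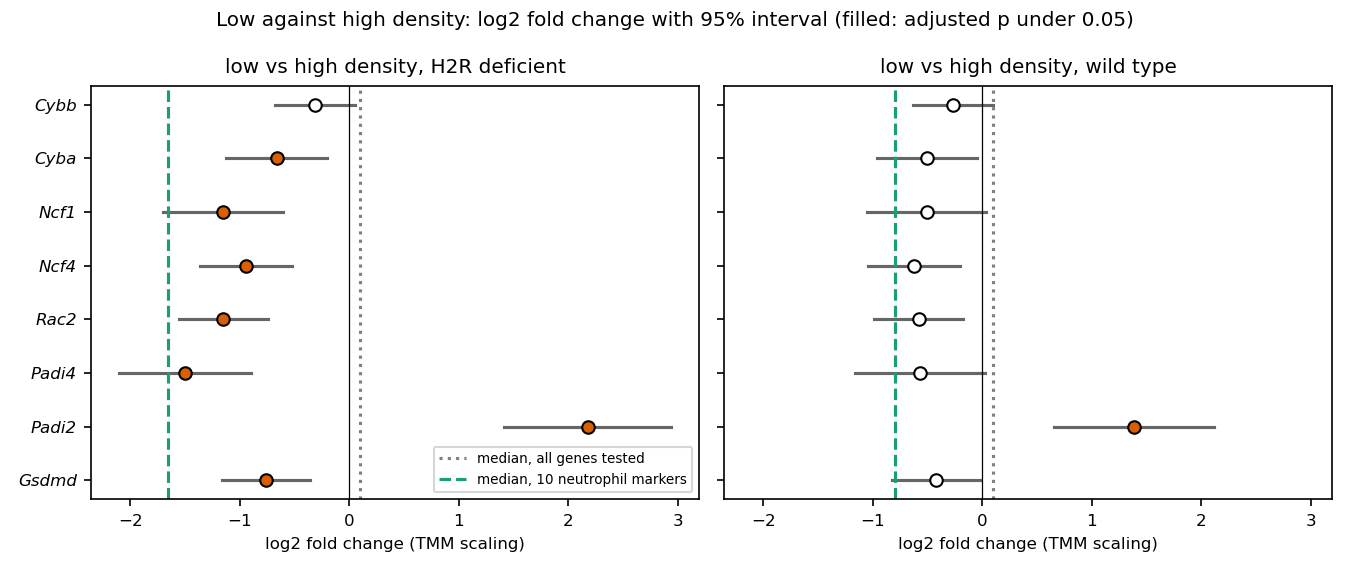
Log2 fold change of low against high density with its 95% interval for each gene, H2R deficient on the left and wild type on the right, filled where the edgeR adjusted p was under 0.05. The dotted line is the median of all genes tested and the dashed line that of 10 neutrophil markers; 6 genes are filled below 0 and Padi2 above it in H2R-deficient cells, and only Padi2 is filled in wild-type cells.

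Padi4 and Padi2 lie near each other on chromosome 4 on opposite strands, and the bases before their start sites are shown because these paralogs were called in opposite directions, with those of Cybb, the gene with the value nearest 0 under TMM. Each run is the 250 bases before the RefSeq start site on the gene's own strand (RefSeq, GRCm38.p6), at chr4:140774204-140774453 on the minus strand for Padi4, chr4:140906110-140906359 on the plus strand for Padi2 and chrX:9469325-9469574 on the minus strand for Cybb. Capitals mark matches, searched on both strands, to a fixed form of each of 5 motifs. They are a TATA box, a CCAAT box, a GC box, an ETS factor site such as that of PU.1, and an interferon-stimulated response element (ISRE). No matches overlap in these windows.
Padi4: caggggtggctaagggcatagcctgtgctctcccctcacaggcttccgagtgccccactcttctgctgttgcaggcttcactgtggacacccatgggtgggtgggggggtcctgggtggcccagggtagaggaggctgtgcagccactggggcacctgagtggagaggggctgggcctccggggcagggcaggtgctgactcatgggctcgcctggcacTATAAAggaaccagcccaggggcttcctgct
Padi2: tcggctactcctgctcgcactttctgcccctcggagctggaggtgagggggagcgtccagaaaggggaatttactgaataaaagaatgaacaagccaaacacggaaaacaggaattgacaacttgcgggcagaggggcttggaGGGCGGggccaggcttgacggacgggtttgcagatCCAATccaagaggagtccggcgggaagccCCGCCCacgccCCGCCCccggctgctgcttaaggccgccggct
Cybb: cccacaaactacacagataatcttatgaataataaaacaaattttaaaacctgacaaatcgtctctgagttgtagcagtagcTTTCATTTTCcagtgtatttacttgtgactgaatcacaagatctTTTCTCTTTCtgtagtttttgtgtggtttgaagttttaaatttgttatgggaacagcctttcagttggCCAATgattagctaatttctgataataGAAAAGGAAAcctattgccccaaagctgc
The Padi4 window holds 1 TATA box, TATAAA, ending 26 bases before the start, which 12.4% of 32851 promoters hold, and 3 CpG dinucleotides. The Padi2 window holds 3 GC boxes, spelled GGGCGG, and 1 CCAAT box, where 32.7% and 33.8% of promoters hold at least 1. It has 17 CpG dinucleotides, against a median of 6 over all promoters. The Cybb window holds 3 ISRE cores, each GAAA on both sides of any 2 bases, where 2.98% of promoters hold at least 1. It also holds 1 CCAAT box and 1 CpG. This window lies inside the span of the counted gene, 9435252 to 9487771, and not at its end. None of the 3 windows holds GAGGAA, the only letters searched for an ETS site, which 23.3% of promoters hold on either strand. Shorter forms such as GGAA, which all 3 windows spell, were not searched, so no lack of an ETS site follows. Of the 8 genes, 5 matched the promoter table, and of the other 2 matched, the Cyba window at chr8:122432941-122433190 has 2 GC boxes and the Ncf1 window at chr5:134229626-134229875 has 1 GC box and 1 ISRE core. No motif match shows that a factor binds there.

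Set against Cybb in the same library, which removes any library scaling, the components still differed between the densities of H2R-deficient cells. The log2 ratio of TPM of Rac2 to Cybb was 1.15 and 1.30 in H2R-deficient low-density libraries, against 2.10 and 2.03 in high-density libraries. For Padi4 it was -2.32 and -1.96 at low density, against -1.01 and -0.87 at high density. The ratio of Padi2 to Cybb was -5.84 and -6.27 at low density, against -8.44 and -8.66 at high density. Neither density overlapped the other for these 3 genes, and the same held for Ncf1, at 1.96 and 1.58 against 2.85 and 2.34, and for Ncf4, at 0.70 and 0.59 against 1.41 and 1.11. The densities were closest for Gsdmd, at -1.42 and -1.28 against -0.93 and -0.86, and for Cyba, at 2.12 and 1.90 against 2.51 and 2.18. In wild-type cells the ratio of Padi4 to Cybb was -1.44 and -1.09 in low-density libraries, against -0.59 and -1.40 in high-density libraries, so the densities overlapped, as they did for Gsdmd. The ratio of Rac2 was 1.45 and 1.57 at low density, against 1.91 and 1.74 at high density, and Ncf4, Ncf1 and Cyba also had the lower ratios at low density with no overlap. Padi2 again had the higher ratios at low density, at -6.41 and -6.40, against -7.67 and -8.55 at high density.

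**Figure D3:**
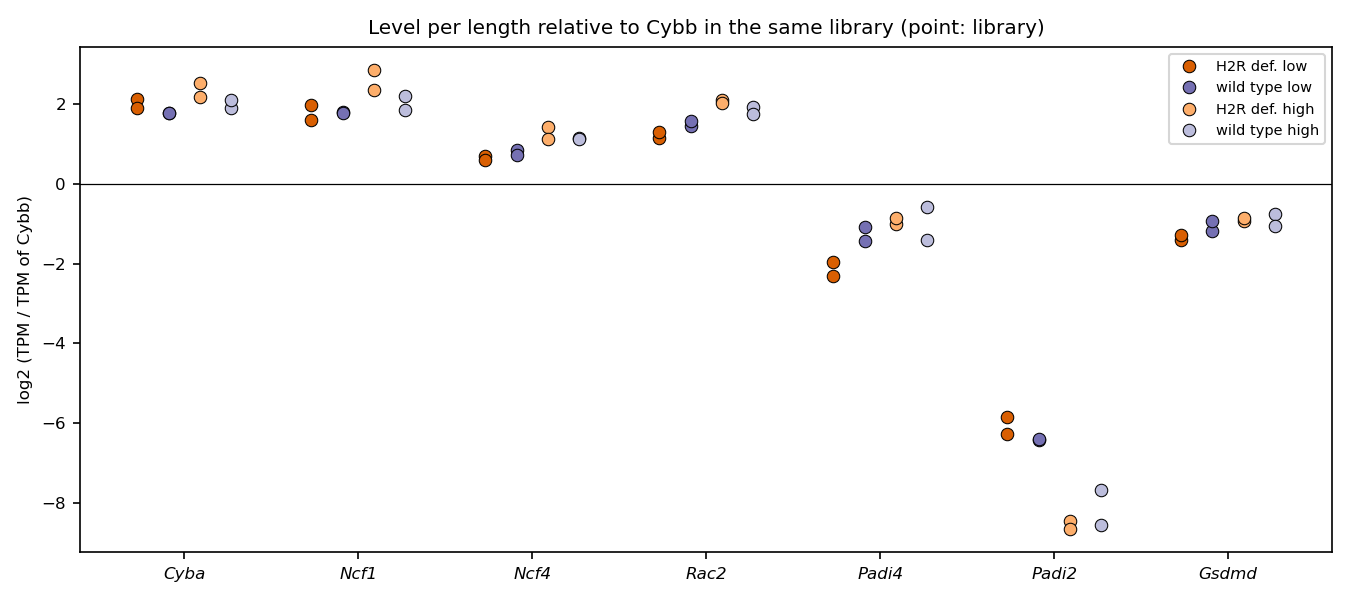
Log2 ratio of each gene's TPM to that of Cybb in the same library (vertical axis), by gene (horizontal axis) and group, with a point for each library. In H2R-deficient cells the low-density points of Padi4, at -2.32 and -1.96, lie below the high-density points, at -1.01 and -0.87, and those of Padi2 lie above, at -5.84 and -6.27 against -8.44 and -8.66. In wild-type cells the Padi4 points overlap, at -1.44 and -1.09 against -0.59 and -1.40.

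In wild-type cells, 1 of the 8 genes was called between densities, Padi2, which was higher at low density, beside 12.7% of all genes, 8.51% higher and 4.15% lower. Padi2 had 5.15 and 5.36 CPM in low-density libraries 2 and 4, against 2.53 and 1.48 CPM in high-density libraries 2 and 4, from 127 and 137 against 43 and 25 counts. Its log2 fold change was 1.39 ± 0.33 (edgeR adjusted p = 0.0293), and it stayed above 0 under all 16 alternatives, from 1.05 to 2.21. The call was lost without any 1 of the 4 wild-type libraries, at 1.83 without high-density library 2, 1.05 without high-density library 4, 1.42 without low-density library 2 and 1.35 without low-density library 4 (edgeR adjusted p = 0.0671, 0.0799, 0.123 and 0.0887). Of all genes, 1888 were called with all libraries, and fewer were called without each of the 8 libraries in turn. Among the wild-type libraries the fall was smallest without high-density library 4, where Padi2 stood at 1.05. It was largest without high-density library 2, where Padi2 stood at 1.83.

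The other 7 genes had log2 fold changes below 0 in wild-type cells under TMM, and none passed. Rac2 had 727 and 810 CPM in wild-type low-density libraries, against 1180 and 1117 CPM in high-density libraries (-0.58 ± 0.18, edgeR adjusted p = 0.0607). Ncf4 had 314 and 301 CPM at low density, against 462 and 484 CPM at high density (-0.62 ± 0.19, edgeR adjusted p = 0.0561), and it was called lower when library number was kept as a block (edgeR adjusted p = 0.0426). For both genes the low-density libraries lay below the high-density ones, as they did for Cybb (507 and 524 against 599 and 639 CPM), Cyba (307 and 318 against 400 and 485 CPM), Ncf1 (1108 and 1122 against 1720 and 1446 CPM) and Gsdmd (67.8 and 83.3 against 108 and 94.4 CPM). The log2 fold changes of these 4 were -0.26, -0.50, -0.51 and -0.42. With 2 libraries per group such a separation is no test. Here and in the other comparisons, the share of all genes without overlap was not counted. Padi4 had 155 and 205 CPM in wild-type low-density libraries, against 332 and 202 CPM in high-density libraries, so its groups overlapped, at -0.57 ± 0.26 (edgeR adjusted p = 0.163). Its value rests on the high-density libraries, with -0.16 without high-density library 2 and -0.89 without high-density library 4. At an unadjusted p under 0.05 edgeR counted 5 of the 8 genes, beside 4976 of the 14909 genes tested. DESeq2 called 4 of the 8 (Padi2 higher, Cyba, Ncf4 and Rac2 lower) and 2778 of all genes, and limma-voom called 1 of the 8 and 1483 of all genes. On total counts only Padi2 was called, the values of Cyba, Cybb, Ncf1, Gsdmd and Padi4 turned above 0, and the median of all genes was 0.67, against 0.096 under TMM. All calls then split into 4822 higher and 124 lower, against 1269 and 619 under TMM, and into 5654 and 73 when scaled to the neutrophil markers. The neutrophil markers had a median of -0.80, with 3 of 10 lower, the B cell markers were higher in 6 of 6 and the dendritic cell markers in 5 of 5.

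By fitted value under TMM the density effect was larger in H2R-deficient than in wild-type cells for all 8 genes, but the difference itself passed for 0 of the 8, as for 0% of all genes (edgeR, with 2 of the 8 and 3150 of all genes at an unadjusted p under 0.05). DESeq2 and limma-voom also called 0 of the 8, and DESeq2 called 990 of all genes. Among the genes lower at low density Padi4 differed most, with -0.93 ± 0.37 (edgeR adjusted p = 0.196, 95% interval -1.77 to -0.10), followed by Ncf1 with -0.65 ± 0.34 (edgeR adjusted p = 0.304) and Rac2 with -0.57 ± 0.25 (edgeR adjusted p = 0.235). Padi2 had 0.79 ± 0.47 (edgeR adjusted p = 0.358), and Cybb had -0.05 ± 0.23, with an interval of -0.56 to 0.47. The size of several differences rests on single libraries. Leaving out H2R-deficient high-density library 1 gave -0.29 for Ncf1, and leaving out library 2 of that group gave -0.93. Leaving out library 2 of the wild-type high-density group gave 0.35 for Padi2 and -1.33 for Padi4, and leaving out library 4 of that group gave 1.13 for Padi2 and -0.61 for Padi4, while that of Rac2 stayed between -0.67 and -0.46. With libraries scaled to the neutrophil markers, the differences of Cybb, Cyba, Ncf1, Ncf4, Rac2 and Gsdmd were all above 0, and that of Padi4 was -0.06. The wild-type and H2R-deficient density effects share no library.

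Between genotypes at low density, 0 of the 8 genes passed, as did 0% of all genes (edgeR, with 3 of the 8 and 3128 of all genes at an unadjusted p under 0.05). Padi4 had the value farthest from 0 of the 8. It had 74.3 and 98.7 CPM in H2R-deficient libraries, against 155 and 205 CPM in wild-type libraries, a 0.48-fold level and a log2 fold change of -1.06 ± 0.26 with a 95% interval of -1.66 to -0.46 (edgeR adjusted p = 0.110). The groups did not overlap, and 4.69% of all tested genes had a lower value. DESeq2 called it lower (adjusted p = 0.00831) and limma-voom did not, and over the 15 alternatives the adjusted p ran from 0.000204 without a filter on low counts to 0.640, with values of -1.28 to -0.18. The value nearest 0 came with scaling to the neutrophil markers, whose own median between genotypes was -0.80.

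Rac2 at low density had 517 and 594 CPM in H2R-deficient, against 727 and 810 CPM in wild-type libraries (-0.47 ± 0.18, edgeR adjusted p = 0.190), and Gsdmd had 50.8 and 58.1 CPM, against 67.8 and 83.3 CPM (-0.47 ± 0.18, edgeR adjusted p = 0.186). For both, the H2R-deficient libraries were the lower ones with no overlap. The remaining oxidase genes differed less, with -0.31 for Ncf4, -0.18 for Cybb, -0.18 for Ncf1 and 0.07 for Cyba, and Padi2 had 0.18. Their 95% intervals were -0.73 to 0.10, -0.55 to 0.18, -0.72 to 0.36, -0.39 to 0.53 and -0.50 to 0.86, in the same order, so changes within those bounds remain possible. Scaled to the neutrophil markers, Cyba, Cybb, Ncf1 and Padi2 were called higher in H2R-deficient low-density cells, with log2 fold changes of 0.96, 0.69, 0.72 and 1.08. That scaling moved the median of all genes to 0.93 and called 6189 of the 14909 genes higher and 20 lower, so these 4 calls are to be read against that shift.

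At high density 0 of the 8 genes passed between genotypes, beside 0.208% of all genes, 0.0201% higher and 0.188% lower. Neutrophil markers were at similar levels there, with a median log2 fold change of 0.19. Other marker medians were -1.81 for macrophage, -1.55 for monocyte, -1.29 for eosinophil, -0.74 for dendritic cell and 0.02 for B cell markers. They were 1.61 for T cell, 1.39 for natural killer cell and 1.33 for mast cell markers. Over all gene counts, natural killer cell markers summed to 0.586 to 0.852 CPM in H2R-deficient and 0.137 to 0.429 CPM in wild-type high-density libraries. There 3 counts are 0.135 to 0.143 CPM, so these values lie near the floor. T cell markers summed to 2.70 to 10.1 against 2.57 to 3.75 CPM, and mast cell markers to 31.9 to 42.9 against 26.8 to 33.3 CPM, both with overlap. Monocyte markers summed to 178 to 183 CPM in H2R-deficient against 142 to 151 CPM in wild-type libraries, so their sum ran against their median. Sums of macrophage (243 to 390 against 470 to 533 CPM) and eosinophil markers (18.8 to 19.4 against 47.0 to 55.0 CPM) went with their medians. Of all these marker lists, 1 eosinophil marker was called, and it was lower. In edgeR 0 of the 8 had an unadjusted p under 0.05, beside 2788 of all genes. DESeq2 and limma-voom also called 0 of the 8, and they called 699 and 2 of all genes. Ncf1 had 2668 and 1717 CPM in H2R-deficient libraries, against 1720 and 1446 CPM in wild-type libraries, so the groups overlapped, though only between 1717 and 1720 CPM. Its log2 fold change was 0.47 ± 0.24 (edgeR adjusted p = 0.329), and 0.11 without H2R-deficient library 1. Padi2 had 1.46 and 1.15 CPM, against 2.53 and 1.48 CPM, with -0.62 ± 0.35 (edgeR adjusted p = 0.381), and -0.18 without wild-type library 2. Padi4 had 244 and 245 CPM in H2R-deficient libraries, between the 332 and 202 CPM of the wild-type ones, with -0.13 ± 0.26 and an interval of -0.72 to 0.46. The values of Cyba, Rac2, Ncf4, Cybb and Gsdmd were 0.23, 0.10, 0.00, -0.14 and -0.13. The 95% intervals of these 5 genes lay between -0.53 and 0.69.

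**Figure D4:**
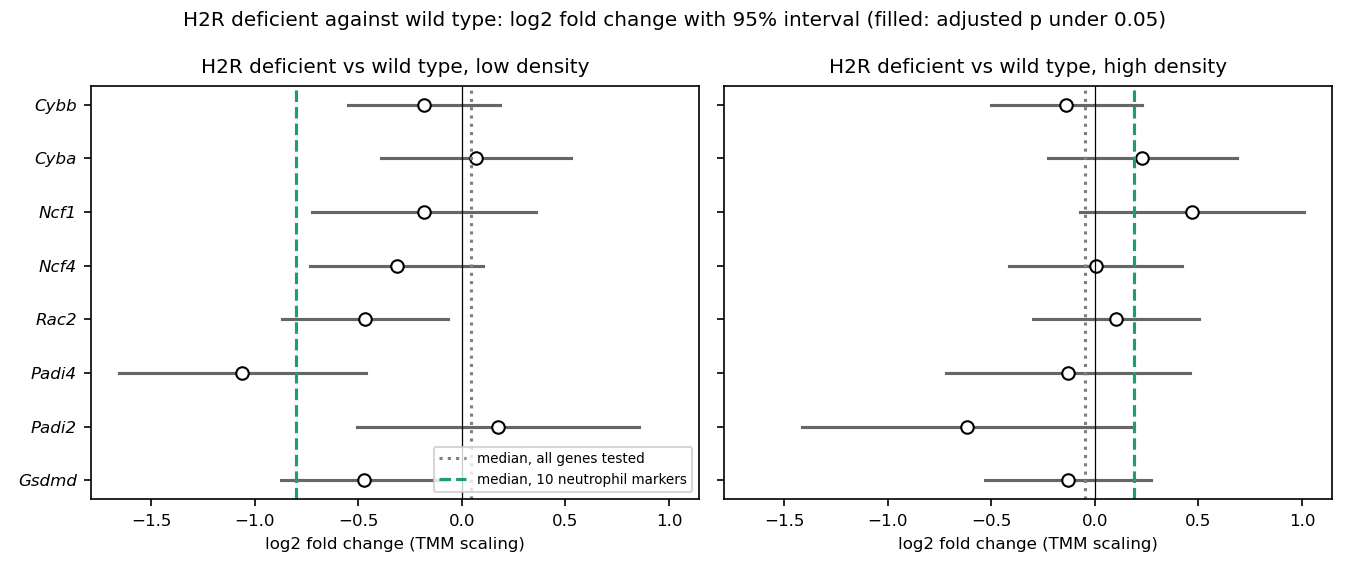
Log2 fold change of H2R-deficient against wild-type cells with its 95% interval for each gene, low density on the left and high density on the right, where an open circle marks an edgeR adjusted p of 0.05 or more. All 16 circles are open; Padi4 at low density, at -1.06 with an interval of -1.66 to -0.46, lies farthest from 0.

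Genes that work with the 8 were followed in 8 lists of 90 genes, of which 76 were tested. In H2R-deficient cells 38 of the 76 were lower and 8 higher at low density, beside 23.9% of all genes lower and 30% higher. In wild-type cells 8 were lower and 2 higher, beside 4.15% of all genes lower and 8.51% higher. Between genotypes 0 were called at low or at high density, and 0 differed in their density effect (edgeR), beside 0, 31 and 0 of all genes. At an unadjusted p under 0.05 edgeR counted 23, 19 and 17 of the 76, beside 3128, 2788 and 3150 of all 14909 genes. DESeq2 called 4 between genotypes at low density, 6 at high density and 6 for the difference of effects, beside 915, 699 and 990 of all genes. With limma-voom 0 were called in each, beside 0, 2 and 0 of all genes. With library number as a block edgeR called 2 of the 76 for the difference of effects, both of them granule genes, beside 28 of all genes. These lists, like the 8 genes, depend on the scaling. On total counts 7690 of all 14909 genes were higher and 387 lower between the H2R-deficient densities. The list counts on total counts below are to be read against that split. With libraries scaled to the neutrophil markers, 0 genes of these 8 lists were lower between the H2R-deficient densities. Higher were 6 partners, 7 signalling, 8 supply, 16 handling, 3 granule, 8 lytic death and 4 clearance genes. Of all 14909 genes, 11271 were higher and 36 lower under that scaling. S100a8 and S100a9, on the granule list, are among the markers that set it.

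Of 14 oxidase partners, 7 were tested and 5 were lower in H2R-deficient low-density than high-density cells, with 0 higher. Rac1, the widely expressed relative of Rac2, had 236 CPM at low density, against 455 CPM at high density (-0.95 ± 0.17, edgeR adjusted p = 0.00163). Cybc1, a chaperone needed for gp91phox, had 59.5 CPM, against 96.2 CPM (-0.69 ± 0.17, edgeR adjusted p = 0.00680). Arhgdia and Arhgdib, which hold Rac proteins in the cytosol, were also lower, at -0.60 and -0.59. Leaving out H2R-deficient low-density library 1 left 2 lower, leaving out high-density library 2 left 3, and on total counts 1 was lower and 1 higher. In wild-type cells 0 of the 7 were called (edgeR, 1 at an unadjusted p under 0.05, 1 by DESeq2, 0 by limma-voom). Over all genes these 4 counts were 1888, 4976, 2778 and 1483. The other catalytic subunits had few or no reads, with 0 to 4 counts of Nox1, 0 of Nox3, 0 to 3 of Nox4, 0 to 1 of Duox1 and 0 of Duox2 in any library.

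Signalling genes upstream of assembly were mostly lower at low density in H2R-deficient cells, with 11 of 16 lower and 0 higher. Tyrobp, the adaptor DAP12, had 520 CPM, against 1358 CPM (-1.39 ± 0.18, edgeR adjusted p = 0.000435), Pak2, a kinase activated by Rac, had -1.18 ± 0.17 (edgeR adjusted p = 0.000636), and Vav3, an exchange factor for Rac, had -1.39 ± 0.21 (edgeR adjusted p = 0.000847). On total counts 2 were lower and 3 higher. In wild-type cells 1 of the 16 was lower, Tyrobp (-0.86 ± 0.17, edgeR adjusted p = 0.0206), and it lost the call without wild-type high-density library 2 (-0.80) or low-density libraries 2 (-0.79) or 4 (-0.92). Without wild-type high-density library 4, 2 genes of the list were lower.

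Enzymes that supply NADPH went both ways in H2R-deficient cells, with 3 of 9 lower and 2 higher at low density. Taldo1, a transaldolase of the pentose phosphate pathway, was lower (-0.93 ± 0.18, edgeR adjusted p = 0.00238), as were G6pdx and Pgd, which make NADPH in that pathway, at -0.98 and -0.84. Pgls (1.15 ± 0.21) and Rpia (0.92 ± 0.24), which act in the same pathway, were higher (edgeR adjusted p = 0.00214 and 0.0106). Of 20 genes that handle superoxide and peroxide, 8 were lower and 4 higher. Prdx2 and Prdx3, which encode a cytosolic and a mitochondrial peroxiredoxin, were higher, at 21.6 against 6.08 CPM (1.83 ± 0.19) and 16.3 against 3.40 CPM (2.26 ± 0.23, edgeR adjusted p = 0.000228 for both). Nfe2l2, the transcription factor NRF2, was lower, at 501 against 1275 CPM (-1.35 ± 0.20, edgeR adjusted p = 0.000791). Without H2R-deficient high-density library 1, 1 supply gene and 5 handling genes were lower, and 5 handling genes without low-density library 2. The count of supply genes higher was 1 without high-density library 2 or low-density library 2, and that of handling genes was 2 without high-density library 2 or low-density library 1. On total counts, 4 of the 9 supply genes and 7 of the 20 handling genes were higher and 0 of either were lower. Of all 14909 genes, 7690 were higher and 387 lower on total counts. In wild-type cells Taldo1 was the only supply gene called (-0.78), and of the handling genes Prdx5 (-0.81), Txn1 (-0.76) and Nfe2l2 (-0.80) were lower and Prdx2 (0.64) and Prdx3 (0.80) higher. Neither Prdx2 nor Prdx3 was called in any fit that left out 1 library, and Taldo1, Prdx5, Txn1 and Nfe2l2 lost their calls when wild-type high-density library 2 was left out, and when either low-density library of that genotype was.

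Of 10 granule proteins that coat traps, 7 were tested. S100a8 and S100a9, which form calprotectin and are also neutrophil markers here, and Lcn2 were lower at low density in H2R-deficient cells, at -1.66 ± 0.26, -1.71 ± 0.28 and -1.35 ± 0.24 (edgeR adjusted p = 0.000997, 0.00122 and 0.00171), with 0 of the list higher. In wild-type cells 0 of the 7 were called (edgeR, 3 at an unadjusted p under 0.05, beside 1888 and 4976 of all genes). DESeq2 called 1 higher and 2 lower, beside 1292 and 1486 of all genes, and limma-voom 0, beside 1483. With library number as a block edgeR called 3 higher and 2 lower, beside 1648 and 973 of all genes. The 2 calls that the block gave for the difference of effects were Ltf (-1.77 ± 0.27) and Ngp (-1.75 ± 0.26), both with an edgeR adjusted p of 0.0438. These granule genes, named after their values were seen, had -1.74 and -1.67 without the block, where edgeR called neither (adjusted p = 0.121 and 0.316). Mpo, Elane and Ctsg, azurophil granule genes that neutrophils transcribe early in their development, had 0 to 4 counts in any library. Of the other deiminases, Padi3 had 5 to 17 counts, Padi1 0 to 4 and Padi6 0 to 5.

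Of 13 genes of gasdermins and lytic death, 12 were tested and 8 were lower and 1 higher at low density in H2R-deficient cells. Nlrp3, an inflammasome sensor, had 981 CPM, against 2663 CPM (-1.44 ± 0.24, edgeR adjusted p = 0.00121), Ripk1 had -1.10 ± 0.19 and Gsdme -1.67 ± 0.33 (edgeR adjusted p = 0.00162 and 0.00293). Casp4, whose mouse product, also called caspase-11, cleaves gasdermin D, had -1.10 ± 0.24 and Ninj1, which ruptures the membrane of dying cells, -0.95 ± 0.19 (edgeR adjusted p = 0.00494 and 0.00314). In wild-type cells Nlrp3 (-1.21 ± 0.23), Casp4 (-1.08 ± 0.24) and Ninj1 (-0.83 ± 0.19) were lower (edgeR adjusted p = 0.0181, 0.0262 and 0.0286), and all 3 lost the call without wild-type high-density library 2 or low-density library 2. On total counts the H2R-deficient list had 1 gene lower and 2 higher, and 0 were higher under TMM when any 1 of the 4 H2R-deficient libraries was left out. Of the 5 trap-clearing nucleases, 4 were tested and Dnase1 was higher at low density in H2R-deficient cells, with 18 and 19 counts, against 1 count in each high-density library. DESeq2 did not call it, and edgeR did not without any 1 of those 4 libraries.

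**Figure D5:**
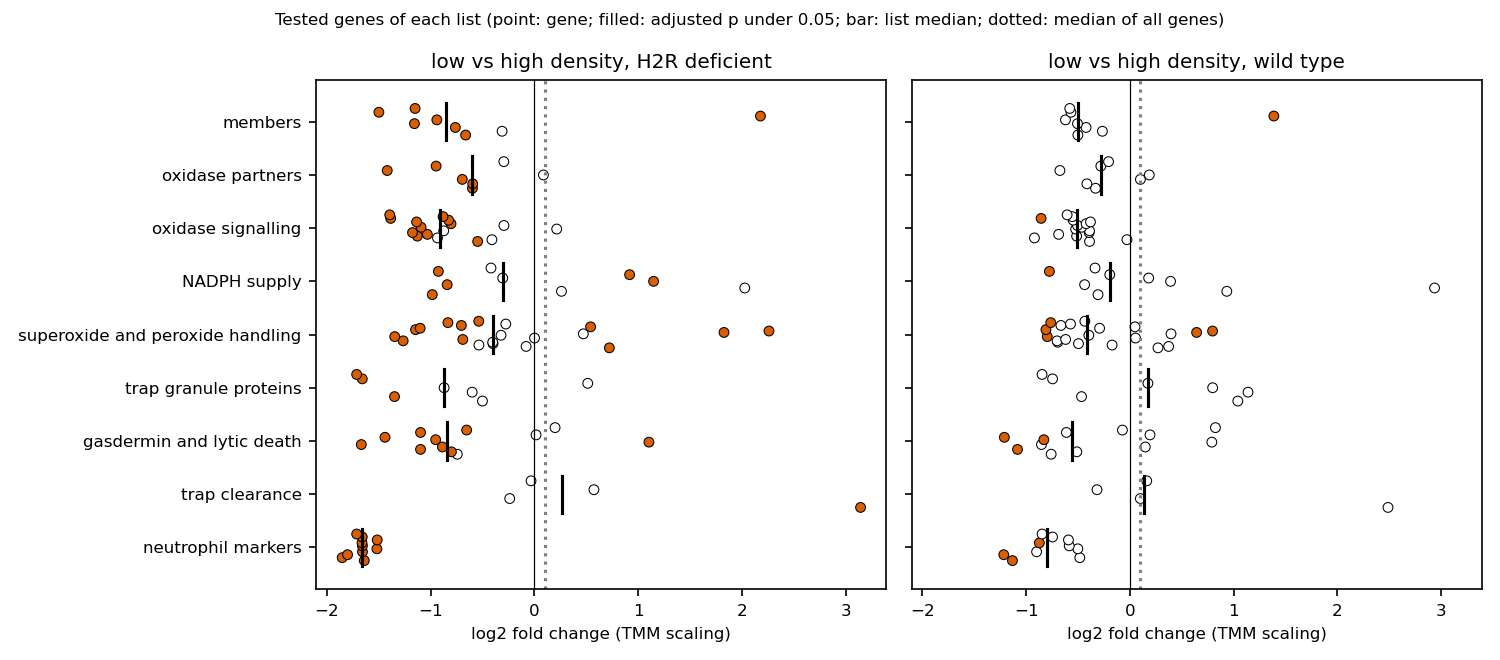
Log2 fold change of low against high density for every tested gene of the 8 genes (members), 7 pathway lists and the neutrophil markers, H2R deficient on the left and wild type on the right, filled where called, with a bar at each list's median and a dotted line at the median of all genes. In H2R-deficient cells the members' median is -0.85 and that of the neutrophil markers -1.66, against 0.098 for all genes.

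For 7 of the 8 genes, the gene whose log2 CPM followed it most closely over the 8 libraries was named by Pearson's r among 4388 genes with at least 20 CPM. They were Pla2g7 for Cybb (r = 0.991), Znrf1 for Cyba (0.988), Reps1 for Ncf1 (0.990), Marcks for Rac2 (0.997), Fam217b for Padi4 (0.997), Cep85 for Padi2 (0.960) and Celsr3 for Gsdmd (0.996). Among the 8 genes themselves, Padi4 and Gsdmd were the most alike (r = 0.978) and Padi2 was opposite to the other 7 (r = -0.70 to -0.90). The libraries fall into low-density and high-density clusters and share their scaling, so these values describe that split and carry no test.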

How the data were processed

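RNA was sequenced in 8 libraries of 4 groups, named and numbered by the labels. Per the file headers, the deposited tables hold unnormalized counts for each gene and its exon length. For the reads, the submitters' processing notes name STAR 2.5.2b, Subread 1.5.2 with featureCounts, Trimmomatic 0.36, bcl2fastq 2.17.1.14 and the build GRCm38. The sources used here give no strand setting, annotation release or rule for multi-mapping reads. Of 49315 identifiers, 48970 matched a symbol in GENCODE M21.

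Counts as deposited were tested with edgeR 4.0.16 (R 4.3.3): genes kept by filterByExpr, TMM scaling, a robust quasi-likelihood fit with 1 mean per group over all 8 libraries (4 residual degrees of freedom, biological coefficient of variation 0.236), and Benjamini-Hochberg adjustment over 14909 genes. SE are from the fit. Alternatives were other scalings, no filter, DESeq2 1.42.0, limma-voom 3.58.1, fits of the 2 groups compared, and each library left out. The labels do not say whether library numbers pair the densities. Same-numbered libraries deviated together from their group means (r = 0.326 in H2R-deficient and 0.155 in wild-type cells). With 2 libraries per group this is 1 value per genotype, which cannot establish pairing. A fit with library number as a block was run as an alternative. It could not be run between genotypes, which share only number 2. Counts of same-group libraries differed by more than sampling noise (chi-square per degree of freedom 33.7 to 53.5).

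The 8 genes and the lists were chosen with earlier results of these data known. Other genes named are up to 3 called genes of lowest adjusted p per list and comparison, with groups that do not overlap and at least 5 CPM, and the closest gene by correlation; some of these are not reported here. Arhgdia, Arhgdib, G6pdx, Pgd, Casp4 and Ninj1 in H2R-deficient cells, Prdx2 and Prdx3 in wild-type cells, Dnase1 and the genes near 0 counts were chosen for naming once their values were known. Counts of the lists and values of named genes without single libraries, under other scalings, with the block and by other tools were added after seeing the data. The main edgeR test of each comparison was first checked on simulated counts in which most genes were unchanged. Other tools, other scalings and the block were not checked in that way.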

Additional observations from a re-analysis of the deposited data

How the results depend on the processing

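Of 616 recomputed values of the 8 genes, 535 kept their direction and their side of the threshold. With direction kept, 13 lost and 10 gained a call. The other 58 changed sign, and some of them also lost or gained a call. Between H2R-deficient densities on total counts, for example, Gsdmd changed sign and lost its call, and Cybb changed sign and gained one. Scaling accounts for most sign changes. On total counts only, the log2 fold changes of low against high density became 0.24 for Cyba, 0.59 for Cybb and 0.14 for Gsdmd in H2R-deficient cells, and 0.067 for Cyba, 0.31 for Cybb, 0.14 for Gsdmd, 0.069 for Ncf1 and 0.00033 for Padi4 in wild-type cells. The differences of effect became 0.18 for Cyba, 0.29 for Cybb and 0.010 for Ncf4, and the genotype values 0.084 for Cybb and 0.095 for Ncf1 at low and -0.058 for Ncf4 at high density. Scaled to the neutrophil markers, the density values became 1.05 for Cyba, 1.39 for Cybb, 0.93 for Gsdmd, 0.57 for Ncf1, 0.77 for Ncf4, 0.17 for Padi4 and 0.54 for Rac2 in H2R-deficient cells, and 0.30, 0.54, 0.37, 0.31, 0.19, 0.23 and 0.22 for these genes in wild-type cells. The differences of effect became 0.76 for Cyba, 0.85 for Cybb, 0.56 for Gsdmd, 0.26 for Ncf1, 0.58 for Ncf4 and 0.32 for Rac2. The genotype values became 0.69 for Cybb, 0.41 for Gsdmd, 0.72 for Ncf1, 0.56 for Ncf4 and 0.40 for Rac2 at low and -0.018 for Ncf4 at high density.

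Values near 0 also changed sign elsewhere. Ncf4 between genotypes at high density was -0.0080 with DESeq2 size factors in edgeR and with DESeq2, -0.028 without a filter, -0.011 with limma-voom, -0.0028 in the fit of 2 groups and -0.23 to 0.20 without single libraries. The difference of effect of Cybb was 0.016 without a filter and -0.11 to 0.027 without single libraries. Without single libraries the range was -0.023 to 0.44 for Cyba, -0.45 to 0.27 for Padi4 and -0.0022 to 0.20 for Rac2 between genotypes at high density, -0.0093 to 0.15 for Cyba and -0.022 to 0.35 for Padi2 at low density, and -0.37 to 0.094 for the difference of effect of Cyba.

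The number of the 8 genes called between densities in H2R-deficient cells was 7, became 3 on total counts, and was 5 to 7 without single libraries. In wild-type cells it was 1, and became 4 with DESeq2, 3 with DESeq2 size factors in edgeR, 0 in the fit of 2 groups, 2 with library number as a block and 0 to 1 without single libraries. Between genotypes at low density it was 0, and became 1 with DESeq2, 1 without a filter and 4 when scaled to the neutrophil markers. The block changed no other call of the 8 genes. Over all genes, the block moved the count from 1888 to 2621 between wild-type densities and from 0 to 28 for the difference of effects. Other counts over all genes moved by more than 1.5 times. Between wild-type densities they were 4946 on total counts, 5727 scaled to the neutrophil markers, 3361 without a filter and 608 in the fit of 2 groups. Between genotypes they were 915 with DESeq2, 1360 without a filter, 6209 scaled to the neutrophil markers and 0 to 121 without single libraries at low density, and 699, 1095, 119 and 0 to 40 in the same settings at high density, with 73 on total counts, 2 with limma-voom and 0 in the fit of 2 groups. For the difference of effects they were 990 with DESeq2, 1210 without a filter, 635 on total counts and 2417 scaled to the neutrophil markers. Scaling apart, the cause of these changes was not tested. Depth limits Padi2 most, with 18 to 43 counts in high-density libraries.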
